A study of Mus musculus with 9 samples.

Results

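The acute phase proteins described here are encoded by 10 genes taken by symbol from the 16755 genes of the deposited expression table: the serum amyloid A genes Saa1, Saa2, Saa3 and Saa4, the orosomucoid genes Orm1, Orm2 and Orm3, and Lcn2, Hp and Hpx. All 10 were found. Liver RNA came from 9 male mice with floxed Scd2 alleles, 3 in each of 3 groups. The sample labels give the strain as C57BL/6, and the study's methods place the conditional knockout mice on the C57BL/6J background. Control Scd2f/f mice were untreated. The other Scd2f/f mice had received the hepatic carcinogen diethyl nitrosamine (DEN) at 2 weeks of age, at a dose of 10 mg/kg, and then, starting at 6 weeks of age, a Western alcohol diet (WAD) rich in fat and cholesterol with ethanol for 4 months according to the sample labels, while the study's methods give a longer feeding period. Scd2f/f;CC mice carried in addition a Cre recombinase under the Col1a1 promoter and had the same DEN and WAD regimen. Cre under this promoter acts in any cell that expresses Col1a1, activated hepatic stellate cells (HSC) and portal fibroblasts, and not in hepatocytes as such. The labels call the tissue liver, and the study's results describe it as tumor-adjacent liver (TAL) in the mice given DEN and WAD. The study's methods instead name the tissue used for this RNA NTL, and the name TAL is kept below. The labels also attach the DEN and WAD protocol to the control mice, whose treatment they give as untreated.

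The acute phase response is the change in plasma proteins that hepatocytes make when inflammatory cytokines reach the liver. Interleukin-6 acts through STAT3, and interleukin-1 and tumor necrosis factor act through NF-kB and C/EBP factors, to raise transcription of many of these genes. Serum amyloid A proteins travel with high-density lipoprotein, orosomucoids are abundant plasma carriers of small basic and lipophilic molecules, lipocalin 2 (Lcn2) withholds iron from bacteria by binding their siderophores, haptoglobin (Hp) captures free haemoglobin and hemopexin (Hpx) captures free haem.

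Each value below is the authors' mean of 1 group in upper-quartile normalised read counts, and it comes without an estimate of its error. Single-mouse values were not analysed here, and no test, SD or interval could be computed from the group means alone. The tests that the authors deposited were not used, so whether a difference is larger than the spread between mice was not tested here for any gene. Genes were set apart at a ratio of group means of at least 2 in either direction. In whole liver RNA, fewer cells of a type and less RNA per cell cannot be told apart. The targeted gene Scd2, a stearoyl-CoA desaturase, had means of 2.46 in untreated Scd2f/f liver, 6.47 in Scd2f/f TAL and 1.87 in TAL of Scd2f/f;CC mice, so its mean was 3.46-fold lower in Scd2f/f;CC than in Scd2f/f TAL.

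The Saa genes lie within 42.3 kb of chromosome 7 (46711998 to 46754314) and the Orm genes within 21.3 kb of chromosome 4 (63344560 to 63365879), in coordinates of the authors' table that match GRCm38. Lcn2 lies on chromosome 2 from 32384633 to 32388253, Hp on chromosome 8 from 109575128 to 109579173 and Hpx on chromosome 7 from 105591613 to 105600138. The reference promoters of Saa1, Saa2, Saa3, Orm2, Orm3 and Lcn2 are shown because these are the 6 genes whose mean was at least 2-fold higher in Scd2f/f TAL than in untreated liver. RefSeq promoters of GRCm38.p6 were matched for 8 of the 10 genes, Orm1 and Hp being the others, and the 250 bases before the RefSeq start site are printed 5′ to 3′ on the strand of the gene, without the last 43 bases for Saa2, 24 for Saa3 and 58 for Lcn2, which GENCODE M21 places in an untranslated region. Capitals mark matches on either strand to TTGNNNAA, a loose C/EBP motif, and in Saa3 also the match GGAAATGCC to the NF-kB motif GGNNTTTCC. The printed windows are chr7:46742981-46743230 (minus strand) for Saa1, chr7:46751583-46751789 (plus strand) for Saa2, chr7:46715701-46715926 (minus strand) for Saa3, chr4:63362199-63362448 (plus strand) for Orm2, chr4:63355908-63356157 (plus strand) for Orm3 and chr2:32387798-32387989 (minus strand) for Lcn2. The Lcn2 window lies inside the gene as placed by the authors, which reaches 32388253, so the RefSeq start used for it lies downstream of that end.
Saa1: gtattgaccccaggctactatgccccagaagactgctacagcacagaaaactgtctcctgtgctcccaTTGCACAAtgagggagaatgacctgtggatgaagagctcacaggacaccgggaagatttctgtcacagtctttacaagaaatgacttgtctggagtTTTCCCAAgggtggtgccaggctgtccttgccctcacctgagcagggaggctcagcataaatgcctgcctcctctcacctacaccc
Saa2: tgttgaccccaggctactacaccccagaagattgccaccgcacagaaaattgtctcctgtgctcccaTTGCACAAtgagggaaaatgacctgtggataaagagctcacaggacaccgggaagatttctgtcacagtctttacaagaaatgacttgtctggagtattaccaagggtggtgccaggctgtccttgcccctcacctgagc
Saa3: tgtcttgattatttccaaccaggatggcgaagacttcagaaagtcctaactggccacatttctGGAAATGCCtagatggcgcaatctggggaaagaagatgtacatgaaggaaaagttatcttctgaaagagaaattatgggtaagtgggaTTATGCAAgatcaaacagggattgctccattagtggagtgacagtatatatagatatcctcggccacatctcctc
Orm2: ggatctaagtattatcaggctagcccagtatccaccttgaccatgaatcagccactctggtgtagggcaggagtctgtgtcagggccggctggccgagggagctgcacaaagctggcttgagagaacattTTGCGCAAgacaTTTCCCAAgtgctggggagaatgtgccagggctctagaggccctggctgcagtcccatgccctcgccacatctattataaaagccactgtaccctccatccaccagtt
Orm3: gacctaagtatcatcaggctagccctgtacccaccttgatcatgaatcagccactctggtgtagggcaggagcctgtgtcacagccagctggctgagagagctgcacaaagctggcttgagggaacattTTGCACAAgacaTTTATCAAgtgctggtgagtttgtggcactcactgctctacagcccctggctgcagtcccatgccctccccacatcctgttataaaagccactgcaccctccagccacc
Lcn2: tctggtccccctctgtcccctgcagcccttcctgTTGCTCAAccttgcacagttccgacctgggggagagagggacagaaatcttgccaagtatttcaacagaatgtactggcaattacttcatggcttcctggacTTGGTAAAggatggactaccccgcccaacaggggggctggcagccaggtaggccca

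Counted over the whole RefSeq window of 250 bases before and 50 after the start, the promoters of Saa1 and Saa2 were identical at 287 of 299 aligned bases (96.0%), and those of Orm2 and Orm3 at 263 of 295 (89.2%). A TTGNNNAA match was found in all 8 matched promoters, against 36.7% of 32851 mouse promoters of the same length. Saa1 and Saa2 shared the match TTGCACAA, 182 bases before the start of Saa1 and 183 before that of Saa2. A second match, TTTCCCAA, 86 bases before the start of Saa1, had no counterpart in Saa2. Orm2 and Orm3 each held a pair of matches at like distances, with TTGCGCAA at 120 bases in Orm2 and TTGCACAA at 121 in Orm3. Saa4 and Hpx, whose means differed little between groups, also held matches. The NF-kB motif GGNNTTTCC was found in 1 of the 8 promoters, that of Saa3, and in 5.82% of all promoters. The STAT motif TTCNNNGAA was found in 0 of 8 and in 8.30% of all, and the interleukin-6 response motif CTGGGAA in 1 of 8, that of Orm3, and in 11.1% of all. Motifs were searched on both strands, and several of these genes are copies of each other, so the counts describe the letters in these windows only.

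The comparison of Scd2f/f TAL with untreated Scd2f/f liver shows how the acute phase genes differed with the carcinogen and diet. Of the 10 genes, 6 had a mean at least 2-fold higher in Scd2f/f TAL, namely Saa1, Saa2, Saa3, Orm2, Orm3 and Lcn2, and 0 a mean at least 2-fold lower. Among all genes, 9.37% were at least 2-fold higher and 4.69% at least 2-fold lower, and among the 12347 genes whose mean reached 1 in any group, as it did for all 10 members, 7.48% were at least 2-fold higher. The median log2 ratio was 1.48 for the 10 genes and 0.04 for all genes. The 4 other genes, Saa4, Orm1, Hp and Hpx, stayed within 2-fold and were the most abundant per transcript length in untreated liver apart from Saa1.

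**Figure D1:**
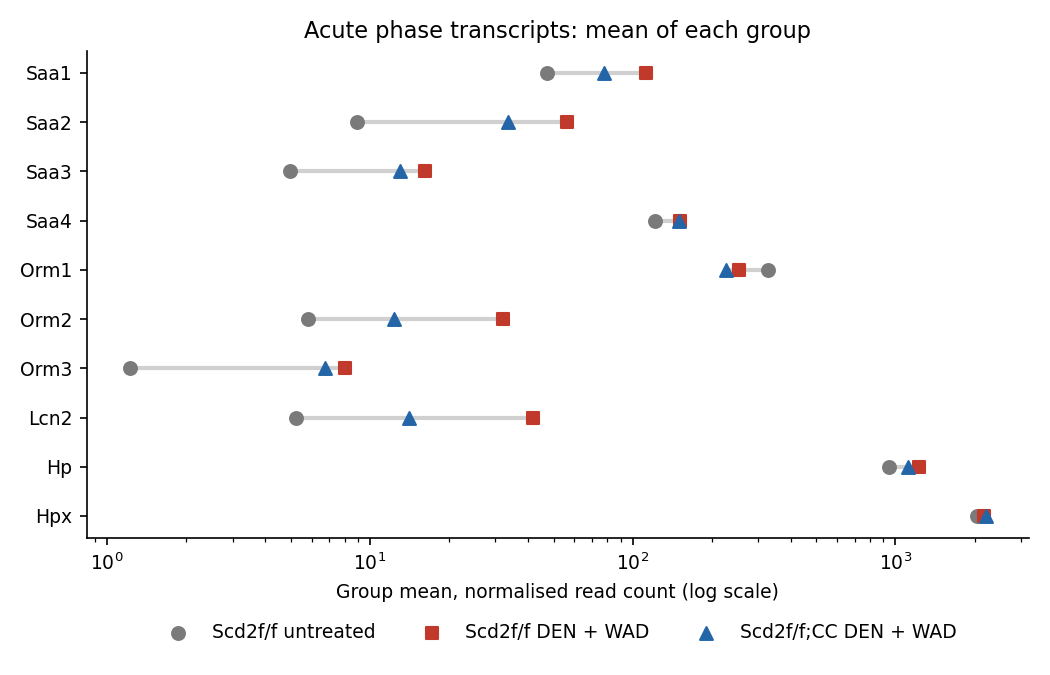
Mean of each group for the 10 acute phase genes, in normalised read counts on a log scale; each point is the authors' mean of 1 group and the gray line spans the 3 means. Lcn2 and Orm2 show the widest gaps between Scd2f/f TAL (41.8 and 32.0) and Scd2f/f;CC TAL (14.1 and 12.3), while the points of Hpx nearly coincide.

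Lcn2 had means of 5.21 in untreated Scd2f/f liver, 41.8 in Scd2f/f TAL and 14.1 in TAL of Scd2f/f;CC mice. Untreated liver was the lowest and Scd2f/f TAL the highest, with a ratio of 8.02 between them, the largest of the 10 genes. In this set of 12347 genes, its ratio ranked 42 from the top. In Scd2f/f;CC TAL the mean of Lcn2 was 2.96-fold lower than in Scd2f/f TAL (log2 ratio -1.57) and 2.71-fold higher than in untreated liver.

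Among the serum amyloid A genes, Saa1 and Saa2 encode the main inducible plasma forms, Saa3 is a form also made by macrophages and other cells outside the hepatocyte, and Saa4 is the constitutive form. Saa1 had means of 47.0 in untreated liver, 112 in Scd2f/f TAL and 77.6 in TAL of Scd2f/f;CC mice. Saa2 had means of 8.95, 56.4 and 33.5 in the same order. The ratio of Scd2f/f TAL to untreated liver was 2.38 for Saa1 and 6.30 for Saa2, so that the Saa1 to Saa2 ratio was 5.25 in untreated liver, 1.99 in Scd2f/f TAL and 2.32 in TAL of Scd2f/f;CC mice. Saa3 had means of 4.97, 16.2 and 13.0, a 3.26-fold higher mean in Scd2f/f TAL than in untreated liver. Saa4 had means of 122, 151 and 150, a ratio of 1.24 with DEN and WAD. Over all 4 genes the summed mean was 183 in untreated liver, 336 in Scd2f/f TAL and 274 in TAL of Scd2f/f;CC mice. Saa4 made up 66.7% of that sum in untreated liver and 45.0% in Scd2f/f TAL, and Saa2 4.89% and 16.8%. These are shares of read counts, which grow with transcript length, and the reference transcript of Saa4 has 2094 bases against 609 for Saa1 and 606 for Saa2. Per kb, Saa1 stood above Saa4 in each group.

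The orosomucoid genes differed from each other in direction. Orm1, the main liver form, had means of 328 in untreated liver, 253 in Scd2f/f TAL and 226 in TAL of Scd2f/f;CC mice, a 1.30-fold lower mean with DEN and WAD. Orm2 had means of 5.83, 32.0 and 12.3, and Orm3 of 1.22, 8.05 and 6.77. The mean in Scd2f/f TAL was thus 5.49-fold higher than in untreated liver for Orm2 and 6.60-fold higher for Orm3, whose log2 ratio of 2.72 became 2.03 after 1 was added to each mean. Orm1 held 97.9% of the summed Orm means in untreated liver and 86.3% in Scd2f/f TAL. The sum was lower in Scd2f/f TAL (293) than in untreated liver (335), a ratio of 0.875 that became 1.09 when all groups were scaled to the same sum. Orm1 exceeded Orm2 56.3-fold in untreated liver, 7.91-fold in Scd2f/f TAL and 18.4-fold in Scd2f/f;CC TAL.

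**Figure D2:**
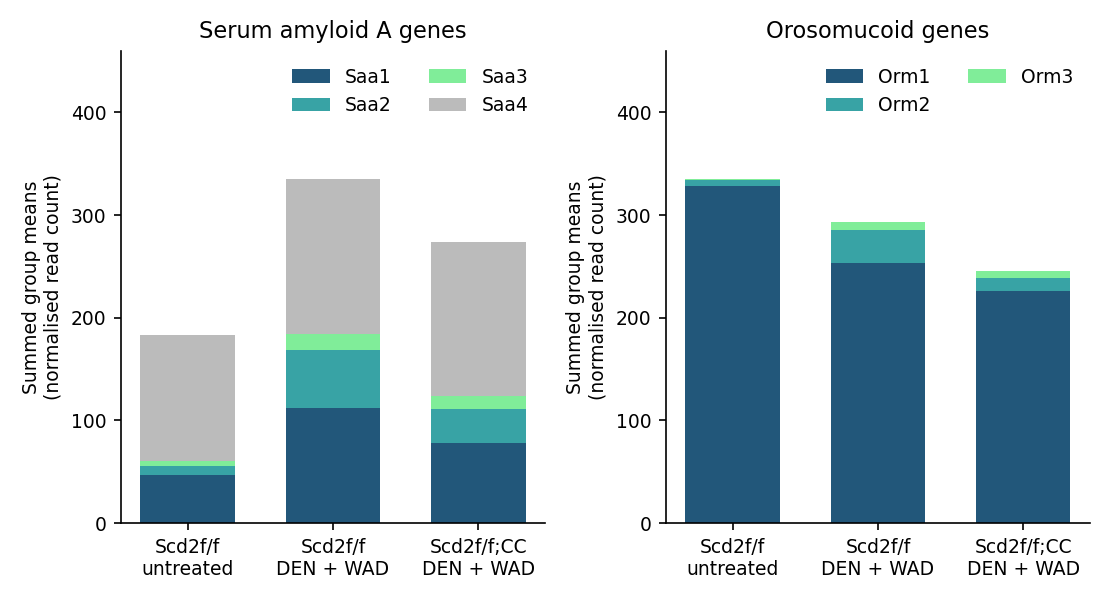
Stacked group means of the 4 Saa genes (left) and the 3 Orm genes (right), in normalised read counts from 0 and not per transcript length, for the 3 groups. The Saa sum is highest in Scd2f/f TAL (336) with Saa4 the largest part, and Orm1 makes up 86.3% or more of the Orm sum in each group.

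These copies share sequence, which limits how reads can be assigned. Aligned over the reference transcripts of GENCODE M21, Saa1 and Saa2 were identical at 94.4% of 606 bases and Orm1 and Orm2 at 91.0% of 775 bases. The shares of 75-base words of the first transcript that occur in the second were 4.67% for Saa1 in Saa2 and 13.8% for Orm1 in Orm2, and 0.143% for Orm2 in Orm3. The authors' quantification divides such reads by estimation, so the split between Saa1 and Saa2 and between Orm1 and Orm2 is less certain than their sums.

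Haptoglobin and hemopexin had the highest means. Hp had means of 949 in untreated liver, 1230 in Scd2f/f TAL and 1120 in TAL of Scd2f/f;CC mice, a ratio of 1.30 with DEN and WAD. Hpx had means of 2040, 2180 and 2210, and its ratios were 1.07 with DEN and WAD and 1.01 between the genotypes. By rank among all genes, Hpx was 43 in untreated liver and 40 in Scd2f/f TAL, and Hp was 75 and 61. Together the 10 genes made up 0.428% of the summed means of all genes in untreated liver, 0.620% in Scd2f/f TAL and 0.522% in TAL of Scd2f/f;CC mice. Their own summed mean was 3512, 4080 and 3863 in the same order, a ratio of 1.16 with DEN and WAD. The summed means of all genes were 820581, 658322 and 739723, so the shares also moved with that total.

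Levels of different genes were compared per kb of the reference transcript. In untreated liver the order was Hpx (1361 per kb), Hp (706), Orm1 (423), Saa1 (77.2), Saa4 (58.3), Saa2 (14.8), Saa3 (8.95), Orm2 (7.52), Lcn2 (5.69) and Orm3 (1.58). In Scd2f/f TAL, Hpx, Hp, Orm1 and Saa1 kept these places, Saa2 (93.1 per kb) stood above Saa4 (72.1), and Lcn2 (45.7) and Orm2 (41.3) stood above Saa3 (29.2). In Scd2f/f;CC TAL, Saa4 (71.6 per kb) again stood above Saa2 (55.3) and Saa3 (23.4) above Orm2 (15.9) and Lcn2 (15.4). Without a spread for any mean, it was not tested which neighbours in these orders differ.

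The comparison of Scd2f/f;CC with Scd2f/f TAL, both after DEN and WAD, addresses what goes with Col1a1-Cre and the loss of Scd2 in Col1a1-expressing cells. No group carried Cre without floxed Scd2, so the Cre transgene and the loss of Scd2 cannot be told apart. Of the 10 genes, 2 had a mean at least 2-fold lower in Scd2f/f;CC TAL, Lcn2 (log2 ratio -1.57) and Orm2 (log2 ratio -1.38), and 0 had a mean at least 2-fold higher. Among all genes 4.07% were at least 2-fold lower and 1.82% at least 2-fold higher, and among genes whose mean reached 1 in any group 2.15% were at least 2-fold lower. In that set of 12347 genes, the ratio of Lcn2 ranked 84 and that of Orm2 ranked 125 from the lowest. The 8 other genes stayed within 2-fold, with Saa2 1.68-fold lower, Saa1 1.44-fold lower, Saa3 1.25-fold lower and Orm3 1.19-fold lower. Orm1 was 1.12-fold and Hp 1.10-fold lower, and the ratios of Saa4 (0.993) and Hpx (1.01) were close to 1. In all, 9 of the 10 means were lower in Scd2f/f;CC TAL, with a median log2 ratio of -0.28 against 0.00 for all genes.

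**Figure D3:**
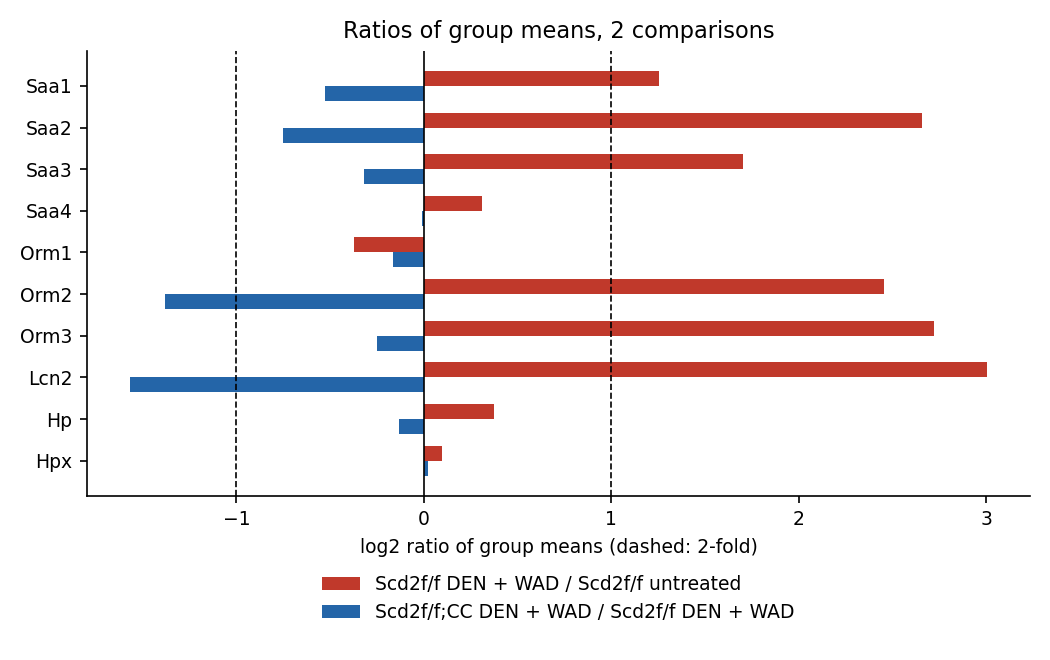
Log2 ratio of group means for each of the 10 genes, Scd2f/f TAL against untreated Scd2f/f liver (red) and Scd2f/f;CC against Scd2f/f TAL (blue); dashed lines mark 2-fold. The red bars of 6 genes pass 2-fold upward and the blue bars of Orm2 and Lcn2 pass it downward; both ratios contain the mean of Scd2f/f TAL.

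Compared with untreated Scd2f/f liver, Scd2f/f;CC TAL had means at least 2-fold higher for 5 of the 10 genes, Orm3 (5.55-fold), Saa2 (3.74-fold), Lcn2 (2.71-fold), Saa3 (2.62-fold) and Orm2 (2.11-fold), and at least 2-fold lower for 0. Orm2 no longer reached 2-fold (log2 ratio 0.96) and Orm3 had a log2 ratio of 1.81 instead of 2.47 when a pseudocount of 1 was used. The shares of all genes were 6.41% higher and 4.64% lower, and 5.22% were higher among genes whose mean reached 1 in any group. Saa1 was 1.65-fold higher. All 3 comparisons share group means with each other, so they are not independent of each other. No untreated Scd2f/f;CC mice were among the samples. A genotype difference without treatment thus cannot be told apart from a different response to DEN and WAD. The difference of Scd2f/f;CC TAL from untreated Scd2f/f liver was expressed as a share of that of Scd2f/f TAL. On the linear scale this share was 24.3% for Lcn2, 24.7% for Orm2, 47.1% for Saa1, 51.7% for Saa2, 71.5% for Saa3 and 81.3% for Orm3. On the log2 scale the same share was 47.8% for Lcn2, 43.8% for Orm2, 57.7% for Saa1, 71.7% for Saa2, 81.4% for Saa3 and 90.8% for Orm3. The order of Lcn2 and Orm2 thus depended on the scale.

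The genes listed next to these loci varied in their ratios. Saal1 and Hps5, on either side of the Saa genes, had log2 ratios of 0.17 and 0.41 between Scd2f/f TAL and untreated liver and of -0.06 and 0.06 between the genotypes. Beside the Orm genes, Akna had means of 0.974 in untreated liver, 3.13 in Scd2f/f TAL and 2.35 in TAL of Scd2f/f;CC mice, a log2 ratio of 1.68 with DEN and WAD near that of Saa3 (1.70). On the other side, Col27a1 was lower with DEN and WAD, with means of 7.95, 3.45 and 4.60. Around Lcn2, Ciz1 (4.89, 5.79 and 5.74), 1110008P14Rik (6.42, 6.53 and 5.96) and Ptges2 (7.99, 5.87 and 6.41) stayed within 2-fold, and Slc25a25, a mitochondrial carrier, had means of 105, 36.9 and 91.0. The nearest genes of Hp, Txnl4b (4.07, 3.96 and 4.16) and Dhodh (3.55, 3.63 and 3.43), and of Hpx, Smpd1 (18.4, 21.7 and 21.7) and Trim3 (2.82, 3.08 and 3.03), stayed within 2-fold.

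Other positive acute phase genes were taken from a list of 25, all found in the table. Of these, 3 were at least 2-fold higher in Scd2f/f TAL than in untreated liver, 3 at least 2-fold lower and 19 within 2-fold, with a median log2 ratio of 0.18. Lbp, which encodes the lipopolysaccharide-binding protein, had means of 25.2, 56.3 and 55.7 in untreated Scd2f/f liver, Scd2f/f TAL and Scd2f/f;CC TAL. Cd14, the co-receptor that takes lipopolysaccharide from it, had means of 0.862, 3.26 and 1.41. The lower genes were the metallothioneins Mt1, with means of 185, 22.1 and 17.7, and Mt2, with 108, 7.72 and 5.59, and the protease inhibitor gene Serpina3m, with 238, 89.4 and 135. Genes of the list that stayed within 2-fold included C3 of complement (3050, 4770 and 4220), the fibrinogen gene Fga (1910, 2250 and 2410), Crp (153, 194 and 196) and Serpina3n (174, 184 and 194). Between Scd2f/f;CC and Scd2f/f TAL, 1 of the 25 was at least 2-fold lower, Cd14 at 2.31-fold, and 1 at least 2-fold higher, Hamp2, whose means were 1.31 in Scd2f/f and 2.90 in TAL of Scd2f/f;CC mice. Negative acute phase genes, whose transcripts decline in an acute phase response, numbered 10, among them Alb, Ttr and Apoa1. All 10 stayed within 2-fold in each comparison, with a median log2 ratio of 0.04 between Scd2f/f TAL and untreated liver and of 0.19 between the genotypes.

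Among 17 genes of interleukin-6 family signalling, 14 were found, and Il6, Il11 and Osm were not analysed here. Socs3, a feedback inhibitor that STAT3 induces, had means of 6.44 in untreated Scd2f/f liver, 16.2 in Scd2f/f TAL and 4.71 in TAL of Scd2f/f;CC mice. It was the 1 gene of the list at least 2-fold higher in Scd2f/f TAL than in untreated liver, and its mean was 3.44-fold lower in Scd2f/f;CC than in Scd2f/f TAL, below untreated liver. The cytokine gene Lif, named after its values were seen, was 2.02-fold lower in Scd2f/f;CC TAL with means of 0.163 and 0.0805. The receptor genes Il6ra (36.6, 25.5 and 21.6) and Il6st (131, 151 and 136) and the factors Stat3 (49.5, 54.8 and 52.7) and Cebpb (79.5, 66.2 and 49.9) stayed within 2-fold in each comparison. The median log2 ratio of the 14 genes was 0.14 with DEN and WAD and -0.20 between the genotypes.

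Of 19 genes of interleukin-1, tumor necrosis factor and NF-kB signalling, 8 were at least 2-fold higher in Scd2f/f TAL than in untreated liver and 0 at least 2-fold lower, with a median log2 ratio of 0.69. Il1rn, the interleukin-1 receptor antagonist, had means of 0.526, 5.27 and 2.68 in untreated Scd2f/f liver, Scd2f/f TAL and Scd2f/f;CC TAL. The cytokine genes Il1b (0.920, 2.45 and 1.90), Il1a (0.947, 2.40 and 2.24) and Tnf (0.132, 0.579 and 0.280) had low means. Among NF-kB genes, Relb (0.526, 2.32 and 1.32) and the feedback inhibitor Tnfaip3 (1.78, 7.70 and 2.92) were past 2-fold, and Nfkb1 (13.7, 14.9 and 14.0) and Rela (16.1, 18.7 and 16.4) were not. Il1r1, the interleukin-1 receptor, had means of 66.7, 39.5 and 28.3. Between the genotypes, 2 of the 19 were at least 2-fold lower in Scd2f/f;CC TAL, Tnfaip3 at 2.64-fold and Tnf at 2.07-fold, and the median log2 ratio was -0.26.

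Among 16 genes for binding partners and receptors of these proteins, 15 were found, and 6 were at least 2-fold higher in Scd2f/f TAL than in untreated liver. Hmox1, which breaks down the haem that hemopexin delivers, had means of 4.25, 17.4 and 11.1. Fpr2, a receptor for serum amyloid A on phagocytes, had means of 0.245, 1.20 and 0.894, and its relative Fpr1 0.602, 2.61 and 2.44. Cd36, a scavenger receptor, had means of 23.7, 138 and 88.5, and Tlr2 3.42, 7.04 and 4.68. Mmp9, whose protein forms a complex with lipocalin 2, had means of 0.157, 0.726 and 0.756. Cd163, the receptor for haptoglobin with haemoglobin, had means of 11.6, 8.44 and 12.9, and Lrp1, the receptor for hemopexin with haem, 568, 896 and 989. Slc22a17, a lipocalin 2 receptor, had means of 0.154, 0.188 and 0.192. None of the 15 found was past 2-fold between the genotypes.

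**Figure D4:**
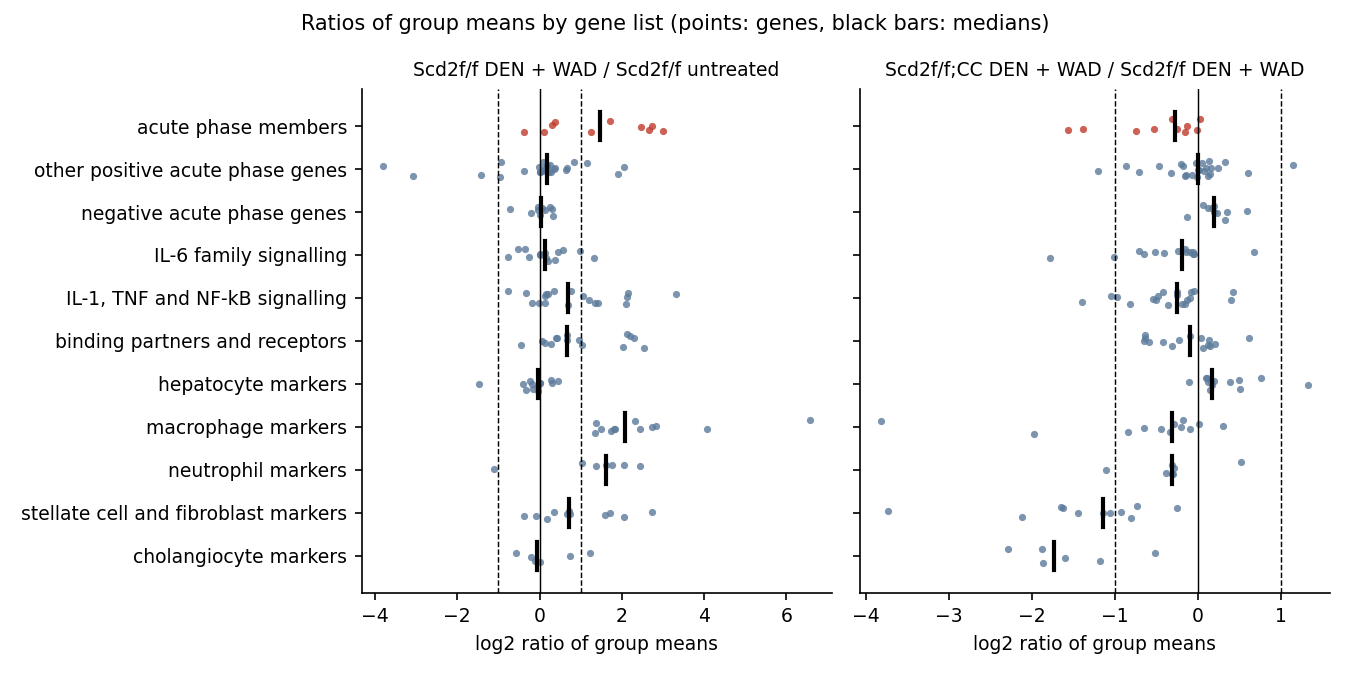
Log2 ratios of group means for single genes (points) in 11 gene lists, with the median of each list as a black bar and 2-fold as dashed lines. Left, Scd2f/f TAL to untreated liver, where the 12 macrophage markers all lie past 2-fold; right, Scd2f/f;CC against Scd2f/f TAL, where the stellate cell and cholangiocyte lists have medians of -1.15 and -1.74.

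Markers of cell types differed between the groups beside the acute phase genes. Hepatocyte markers were abundant in each group, with Alb at 21300 in untreated Scd2f/f liver, 20900 in Scd2f/f TAL and 22700 in TAL of Scd2f/f;CC mice. Of 13 hepatocyte markers, 1 was at least 2-fold lower in Scd2f/f TAL, Tat, and between the genotypes 1 was at least 2-fold higher in Scd2f/f;CC TAL, G6pc (54.2 and 136), with 12 of the 13 means higher. The summed mean of the 13 was 37399 in untreated liver, 39338 in Scd2f/f TAL and 43877 in TAL of Scd2f/f;CC mice. All 12 macrophage markers were at least 2-fold higher in Scd2f/f TAL than in untreated liver, with summed means of 83.5, 327 and 283, and the gene with the highest mean was Clec4f in untreated liver (27.3) and Cd5l in both groups given DEN and WAD (114 for Scd2f/f TAL). Between the genotypes, 2 of the 12 were at least 2-fold lower, Gpnmb (8.98 and 0.638) and Trem2 (1.80 and 0.459). Of 15 neutrophil markers, 7 were found, and Mpo, Elane, Camp and Ly6g were among the 8 not analysed here. Of the 7, 6 were at least 2-fold higher in Scd2f/f TAL than in untreated liver and 1, Prtn3, at least 2-fold lower. Between the genotypes 1 of the 7, Cxcr2, was at least 2-fold lower in Scd2f/f;CC TAL (0.471 and 0.218). Their summed mean was 1.62, 5.09 and 4.06, the highest mean was that of Csf3r in untreated liver (0.477) and of S100a9 in Scd2f/f TAL (1.94) and Scd2f/f;CC TAL (1.59), and the granule gene Ngp had means of 0.0400, 0.0813 and 0.0620. The means of Ngp and Ltf in untreated liver, 0.0400 each, were the lowest value listed for that group, so their ratios rest on a value at the floor of the table. Lcn2 and Saa3 are also made by these myeloid cells, whose part in their values was not tested.

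Between the genotypes, most but not all markers of 2 further lists of cell types were at least 2-fold lower. Of 11 stellate cell and fibroblast markers, 7 had a mean at least 2-fold lower in Scd2f/f;CC than in Scd2f/f TAL, and 4 stayed within 2-fold. Their summed means were 135 in untreated liver, 263 in Scd2f/f TAL and 128 in TAL of Scd2f/f;CC mice. Against untreated liver, 4 of the 11 were at least 2-fold higher in Scd2f/f TAL and 7 stayed within 2-fold. In Scd2f/f;CC TAL, 3 of the 11 were at least 2-fold lower than in untreated liver and 0 at least 2-fold higher. The highest mean of the list in each group was that of Dcn (70.3, 118 and 67.2), and Col1a1 had means of 4.69, 19.6 and 4.51. Of 6 cholangiocyte markers, 5 were at least 2-fold lower, with summed means of 58.9, 53.6 and 19.3, Spp1 having the highest mean in each group (52.3, 45.1 and 14.8) and Krt19 having means of 0.746, 0.751 and 0.204. The part of these cells in the lower means of Lcn2 and Orm2 was not tested.

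The genes with the ratios most like those of Saa1, Orm2, Lcn2 and Hp were sought among the 6020 genes whose mean reached 10 in any group, by the Euclidean distance over 2 log2 ratios, that of Scd2f/f TAL to untreated liver and that of Scd2f/f;CC to Scd2f/f TAL. These ratios rest on only 3 group means. For Lcn2, the nearest were Osbpl3 at a distance of 0.57, Orm2 at 0.58 and H2-Ab1 at 0.61, and 0 genes came within 0.25. For Orm2, 3 genes came within 0.25, H2-Eb1 at 0.20, H2-Ab1 at 0.20 and Osbpl3 at 0.25. H2-Eb1 and H2-Ab1 encode chains of MHC class II molecules, and H2-Ab1 had means of 6.48, 37.4 and 16.4. For Saa1, 30 genes came within 0.25, with Adora1 (0.05), Igfbp3 (0.07) and Ifi30 (0.07) nearest. Around Hp, whose ratios were close to 1, 1134 genes came within 0.25, and Rhoa, Csk and H6pd were nearest.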

How the data were processed

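RNA was prepared by the authors from liver with the PicoPure kit, and polyadenylated RNA was sequenced after TruSeq V2 preparation. The submitters' processing notes name STAR 2.6.1, Partek 6 and the mm10 build. According to the study's methods, reads were assigned to Gencode M3 genes by the Partek E/M method, normalised to the upper quartile and compared by Partek Gene Specific Analysis. The deposited table holds, for each of 2 comparisons of the authors, p-values, FDR, ratios and fold changes, none of which were used, and a signal per group with 3 significant digits, which is the least-squares mean of the normalised counts. The 75th percentile of the signal was 15.5, 15.5 and 15.4 in untreated Scd2f/f, Scd2f/f TAL and Scd2f/f;CC TAL. The total count per sample is unknown, so no interval was given, and with 1 mean a group no test was run.

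Ratios of the means were taken without a pseudocount, and a gene was counted at 2-fold or more. Symbols of 16171 genes were matched to GENCODE M21, and 99.975% overlapped the gene of that name. Levels per kb used the length of a single reference transcript of each gene. The comparison step was tested on simulated data. The members and gene lists were chosen with earlier results of these data known. Named genes are the 10 members, Scd2, up to 6 genes of each other list that were past 2-fold in any comparison with a mean of at least 1 in a group, up to 4 defining genes a list, and the 3 genes nearest to each of Saa1, Orm2, Lcn2 and Hp. Genes beside the loci, Hamp2, Cxcr2, Prtn3, Ltf, Cd4 and Ighm were chosen after their values were seen. The values of 1 gene that this rule names are not reported here. Alternatives were fold limits of 1.5 and 3, pseudocounts of 0.1 and 1, centring and 2 rescalings. Scripts ran in Python 3.11.15 with NumPy 2.4.6, pandas 2.3.3, Biopython 1.88 and Matplotlib 3.10.9.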

Additional observations from a re-analysis of the deposited data

How the results depend on the processing

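The count of acute phase genes past the fold limit kept within 1.5 times its value under pseudocounts, the minimum mean, centring and rescaling in all 3 comparisons. A pseudocount of 1 ended 1 call, that of Orm2 between Scd2f/f;CC TAL and untreated liver (log2 ratio 0.96, 4 genes instead of 5). With a fold limit of 3, the count between Scd2f/f;CC and Scd2f/f TAL was 0 instead of 2, and between Scd2f/f;CC TAL and untreated liver 2 instead of 5, since fewer ratios reach that limit. With a fold limit of 1.5, the genes of the other lists past the limit numbered 45 instead of 24 between the genotypes and 67 instead of 40 between Scd2f/f;CC TAL and untreated liver, of 142 genes. Of 90 recomputed log2 ratios of single members, 88 moved by less than 1.5-fold, and the 2 others were those of Orm3 under a pseudocount of 1, at 2.03 and 1.81. Scaling all groups to the same sum moved the median log2 ratio of all genes by 0.32 between Scd2f/f TAL and untreated liver and by -0.17 between the genotypes, against which the members' ratios are to be read. No paired analysis was possible because the columns hold means of groups and carry no replicate numbers, and leaving out single mice could not be run for the same reason. Values with 3 significant digits and no spread limit what can be said of small ratios, such as those of Hpx and Saa4.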

Other observations

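Markers of other cell types in the tissue also differed between groups. Of 6 endothelial markers, 2 were at least 2-fold higher in Scd2f/f TAL than in untreated Scd2f/f liver, Lyve1 (2.54-fold) and Cdh5 (2.04-fold), and 0 of 6 were past 2-fold between the genotypes. Their summed means were 105 in untreated liver, 142 in Scd2f/f TAL and 143 in TAL of Scd2f/f;CC mice, and Stab2 had the highest mean in each group. Of 6 lymphocyte markers, 4 were at least 2-fold higher in Scd2f/f TAL than in untreated liver, with summed means of 4.06, 6.95 and 6.39. Between Scd2f/f and Scd2f/f;CC TAL, the T cell genes Cd3e (1.25 and 0.545) and Cd8a (1.05 and 0.302) had a mean at least 2-fold lower in Scd2f/f;CC mice, and the third T cell gene of the list, Cd4 (0.817 and 0.883), did not. The B cell genes Cd79a (0.530 and 0.569), Ms4a1 (0.460 and 0.474) and Ighm (2.84 and 3.62) were within 2-fold.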
